A study of Mus musculus and Rattus norvegicus with 85 samples.

Results

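The lungs of rats that breathed 200 ppm chloroprene were compared after 15 and after 5 exposure days. The 10 arrays used, of 85 in the study, are those whose sample titles give rat, 200 ppm and 1 of these times: rats 277, 279, 280, 281 and 282 at 15 days and rats 265, 266, 267, 268 and 269 at 5 days, each array from a different animal. All were female F344/NCrl rats (the strain field spells it F334/NCrl), 10 weeks old when exposure began, and they inhaled chloroprene in air by whole-body exposure for 6 h a day on 5 days a week. The 5-day rats were killed on day 5 and the 15-day rats on day 19, by pentobarbital and exsanguination, and the right lung lobes were kept in RNAlater and measured on Affymetrix Rat230_2 arrays. The other 30 rat arrays, from 5, 30 and 90 ppm at the same times with 5 animals in each group, entered the same fit. Rats at 0 ppm are not analysed here, so time on chloroprene, age and time in the inhalation chambers cannot be told apart.

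Chloroprene is the monomer of a synthetic rubber. Cytochrome P450 enzymes, CYP2E1 and the lung's CYP2F forms among them, oxidise it to reactive epoxides, which epoxide hydrolase opens and glutathione transferases conjugate. Club cells of the airway are rich in P450s, and loss of glutathione to conjugation engages NRF2, the transcription factor that turns on glutathione synthesis and quinone reduction. A lung homogenate also holds the red cells in its vessels, the mesothelium on its surface, immune cells and stroma. In such bulk tissue, fewer cells of a type and less RNA per cell cannot be told apart.

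The tissue carried the markers of lung in every rat. The log2 signal of Sftpc, a surfactant protein of alveolar type 2 cells, averaged 15.06 ± 0.03 (SD, n = 5) at 5 days and 15.03 ± 0.02 (n = 5) at 15 days. Scgb1a1, the main secretory protein of club cells, averaged 15.11 ± 0.03 and 15.05 ± 0.03, near the highest value of the table, 15.1. The mean level of the 12 cardiac muscle genes tested ran from 6.57 to 7.93 at 5 days and from 6.77 to 8.33 at 15 days, with none past the threshold.

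Of the 5 technical values compared, the optical density of the RNA differed between the times after adjustment. The optical density of the RNA at 260 nm was 2.26 ± 0.64 (SD, n = 5) at 15 days and 5.13 ± 1.26 (n = 5) at 5 days, with no overlap (exact permutation test, two-sided p = 0.00794, the smallest 5 against 5 can give, and 0.0397 adjusted over the 5 technical values). The RNA integrity number was 8.50 ± 0.51 (n = 5) and 7.78 ± 0.70 (n = 4, since rat 269 has none; exact permutation p = 0.103). A single axis held 64.8% of the variance within the rat groups, against 5.87% for the next, and each array was scored on it in log2 per gene. Rats 277 and 282 stood apart at −0.45 and −0.31, while rats 279, 280 and 281 lay at 0.16, −0.01 and 0.11. The 5-day rats lay between 0.06 and 0.23 (exact permutation p = 0.0397 for 15 against 5 days, 0.0992 adjusted). Across the genes tested, the loading on this axis and the time change at 200 ppm correlated at r = −0.92, a description over genes that share the same arrays. The part of these values in the results was not tested beyond the fits given beside them.

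**Figure D1:**
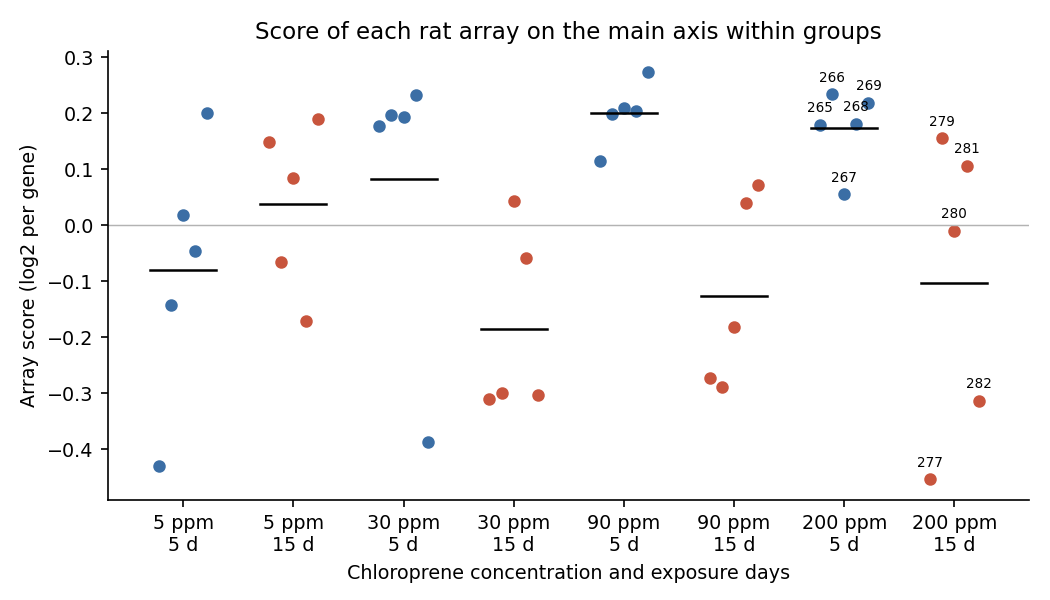
Score of each of the 40 rat arrays on the main axis of variation within groups (vertical axis, log2 per gene), by concentration and exposure days (horizontal axis). Points are animals, blue at 5 and red at 15 exposure days, horizontal lines are group means, and the rats at 200 ppm are numbered; rats 277 and 282 lie at −0.45 and −0.31, below the other rats at 200 ppm.

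At 200 ppm, 14 of 11010 genes changed between 5 and 15 exposure days, 0.127% of those tested (adjusted p under 0.05 in limma, Benjamini-Hochberg over all genes). Of these, 11 were higher at 15 days (0.0999% of genes) and 3 lower (0.0272%), and 9 of the 14 moved by at least 1.5-fold. Alas2, a red-cell gene, had the largest rise, and the flavin monooxygenase Fmo2 the largest fall. Before adjustment, 4580 genes had a p under 0.05, or 41.6%, with 3216 higher (29.2%) and 1364 lower (12.4%). All 5 rats of a time lay above all 5 of the other for 631 genes higher at 15 days (5.73%) and 146 lower (1.33%). The median change over all genes was 0.12 on the log2 scale, with 68.0% of genes above 0, and the median standard error was 0.11.

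The threshold cut through a dense band of genes. While 14 genes had an adjusted p under 0.05, 265 had one under 0.051 (2.41%) and 3780 under 0.1 (34.3%). The number called therefore depended on single rats. No gene passed without rat 265, 269, 277 or 282, 6 passed without 266, 5 without 280, 38 without 268, 835 without 267, 3371 without 281 and 3740 without 279. With rats 277 and 282 both left out, or with the array score as a covariate, no gene passed in limma, and 677 and 1318 genes had an unadjusted p under 0.05. No gene passed either with the RNA integrity number, the 3' to 5' signal difference of control probe sets or the optical density as a covariate, with 2704, 3717 and 174 genes under an unadjusted p of 0.05. The fit with the RNA integrity number also lacked rats 233 and 269, which have none. Weighting the arrays by their quality called 2678. The 14 called genes kept their direction in each of these fits.

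**Figure D2:**
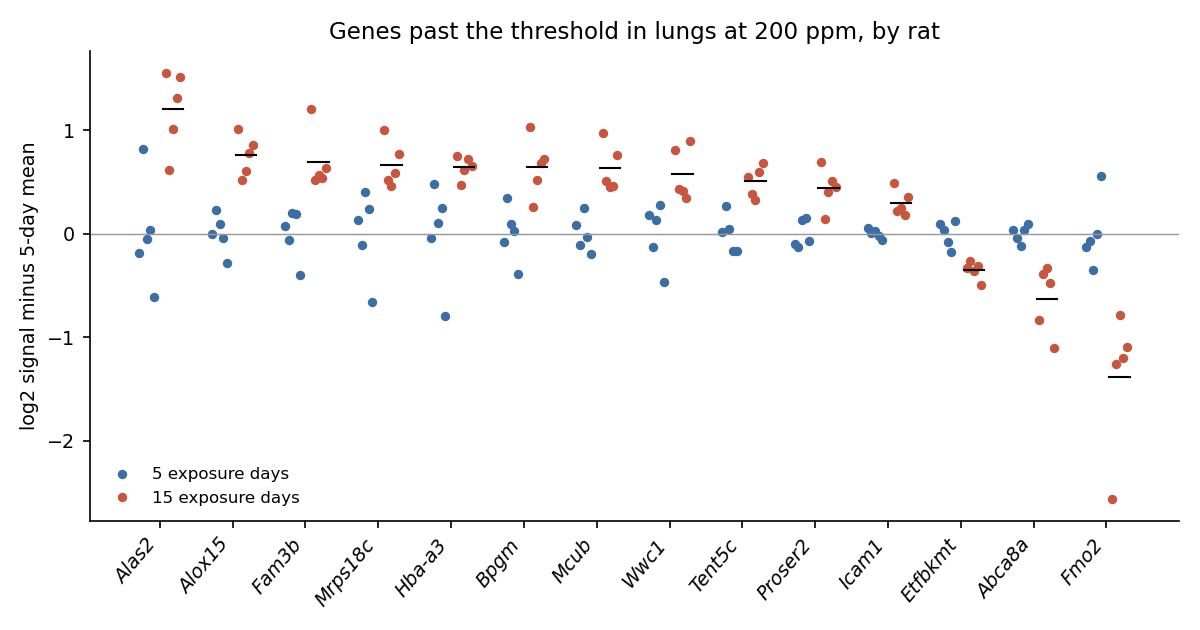
Log2 signal of the 14 genes past the threshold in each rat at 200 ppm, minus the gene's mean at 5 days (vertical axis), with genes along the horizontal axis from the largest rise to the largest fall. Blue points are the 5 rats at 5 exposure days, red points the 5 rats at 15 days and black lines the 15-day means; Alas2 rose by 1.20 and Fmo2 fell by 1.38 on the log2 scale, and rat 277 is far below the other 15-day rats for Fmo2.

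Red-cell genes were among those that rose. Alas2, the enzyme that starts haem synthesis in red-cell precursors, had log2 signals of 9.25, 10.26, 9.39, 9.48 and 8.83 in the 5-day rats and 10.9997, 10.06, 10.46, 10.75 and 10.96 in the 15-day rats. At 15 days 4 values lay above every value at 5 days, and rat 279 at 15 days lay below rat 266 at 5 days. Alas2 rose by 1.20 ± 0.24 (SE; 2.30-fold, adjusted p = 0.0473). Hba-a3, an alpha globin chain, measured 12.15, 12.67, 12.30, 12.44 and 11.40 at 5 days and 12.94, 12.67, 12.80, 12.92 and 12.85 at 15 days, a rise of 0.64 ± 0.14 (adjusted p = 0.0473). The groups met at 12.67, and the 15-day rats lay close together for this globin, with an SD of 0.11 against 0.48 at 5 days, and rat 269 was the low one at 5 days.

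Bpgm makes 2,3-bisphosphoglycerate, which lowers the oxygen affinity of haemoglobin. It measured 9.99, 10.42, 10.17, 10.10 and 9.68 at 5 days and 11.10, 10.33, 10.60, 10.75 and 10.80 at 15 days. Only rat 279 of the 15-day rats lay below the highest 5-day rat, and Bpgm rose by 0.64 ± 0.14 (adjusted p = 0.0484). Its other probe set was 0.63 higher.

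The list of 24 red-cell genes has 15 on the array and 10 that passed the filter on low signals. Of these 10, 2 rose (Alas2 and Bpgm; Hba-a3 is not on the list), beside 0.0999% of all genes, and none fell. Before adjustment 8 were higher at a p under 0.05, beside 29.2% of all genes, and the median difference was 0.39 beside 0.12 over all genes. Fech, which inserts iron into haem, was 0.59 ± 0.16 higher and Ahsp, the chaperone of free alpha globin, 0.68 ± 0.20 higher, both short of the threshold (adjusted p = 0.0501 and 0.0522). Hbb, a beta globin, was 0.26 ± 0.06 higher and Tfrc, the transferrin receptor, 0.40 ± 0.24 lower (adjusted p = 0.0501 and 0.179). The list's median was 0.25 without rats 277 and 282 and 0.24 with the array score as a covariate. How much blood was left in each lung is not given in the sources used here.

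Of the 3 genes that fell, Fmo2, a gene of the flavin monooxygenase family, fell most. Its log2 signal was 11.95, 12.01, 11.73, 12.07 and 12.64 at 5 days and 9.51, 10.82, 11.29, 10.88 and 10.98 at 15 days. Every 15-day rat lay below every 5-day rat, and rat 277 lay far below the others. Fmo2 fell by 1.38 ± 0.29 (SE) on the log2 scale (adjusted p = 0.0473). Its other probe sets were lower by 0.76 and 1.28, given as −0.76 and −1.28 in the same fit of all probe sets. Without rats 277 and 282 the change was −1.08 (unadjusted p = 0.00103, adjusted p = 0.726). The related Fmo1 and Fmo5 differed by 0.04 ± 0.11 and 0.15 ± 0.08 (adjusted p = 0.772 and 0.154).

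Abca8a, a membrane transporter of the lipid-handling ABCA family, measured 10.56, 10.49, 10.41, 10.56 and 10.62 at 5 days and 9.69, 10.14, 10.20, 10.05 and 9.42 at 15 days. It fell by 0.63 ± 0.13 (SE; adjusted p = 0.0473), with the groups apart and rats 277 and 282 lowest. Etfbkmt, a methyltransferase that modifies the electron transfer flavoprotein of mitochondria, measured 9.17, 9.11, 8.999, 8.90 and 9.20 at 5 days and 8.75, 8.81, 8.71, 8.77 and 8.59 at 15 days. It fell by 0.35 ± 0.07 (adjusted p = 0.0473) on the probe set with the higher signal, while its other probe set was 0.14 ± 0.13 higher.

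Rises of genes not on the red-cell list included enzymes, an adhesion molecule and mitochondrial proteins. Which cells gave these signals was not tested. Tent5c, a poly(A) polymerase that lengthens mRNA tails, had the smallest p of all genes. It measured 8.95, 9.20, 8.97, 8.75 and 8.75 at 5 days and 9.47, 9.30, 9.25, 9.52 and 9.60 at 15 days, a rise of 0.51 ± 0.09 (SE; adjusted p = 0.0403). The groups did not overlap. Alox15, a lipoxygenase that inserts oxygen into polyunsaturated fatty acids, measured 9.01, 9.23, 9.10, 8.97 and 8.72 at 5 days and 10.01, 9.53, 9.62, 9.79 and 9.87 at 15 days. Alox15 rose by 0.76 ± 0.15 (adjusted p = 0.0473), with a gap between the groups wider than the SD of 0.19 within each.

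Icam1 binds leukocyte integrins on endothelium and epithelium. It measured 12.43, 12.38, 12.40, 12.36 and 12.32 at 5 days and 12.87, 12.60, 12.62, 12.56 and 12.73 at 15 days, without overlap, and rose by 0.30 ± 0.06 (adjusted p = 0.0473). It was the only called gene among the 23 cytokines, chemokines and adhesion genes tested, beside 0.0999% of all genes called higher. Their median difference was 0.10, below that of all genes.

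Mcub, the subunit that restrains the mitochondrial calcium uniporter, measured 7.96, 7.78, 8.13, 7.85 and 7.69 at 5 days and 8.86, 8.39, 8.34, 8.34 and 8.64 at 15 days, a rise of 0.63 ± 0.14 (adjusted p = 0.0473). Mrps18c, a protein of the small mitochondrial ribosomal subunit, rose by 0.67 ± 0.14 (adjusted p = 0.0473) from 8.35, 8.11, 8.62, 8.46 and 7.56 to 9.22, 8.74, 8.68, 8.80 and 8.99. Both genes had every 15-day rat above every 5-day rat. The other probe sets of Mrps18c differed by only 0.10 ± 0.09 and 0.07 ± 0.07, so the size of this change rests on a single probe set. The 26 oxidative phosphorylation genes tested had a median difference of 0.21, with none called and 16 higher before adjustment, beside 29.2% of all genes.

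Fam3b, a secreted cytokine-like protein, rose by 0.69 ± 0.15 (adjusted p = 0.0473) from 6.92, 6.79, 7.06, 7.05 and 6.45 to 8.06, 7.37, 7.42, 7.40 and 7.49. Rat 277 was well above the other 15-day rats, which lay between 7.37 and 7.49. Wwc1, a scaffold upstream of the Hippo growth-control pathway, rose by 0.58 ± 0.13 (adjusted p = 0.0473), with 8.76 to 9.50 at 5 days and 9.57 to 10.12 at 15 days, and its other probe set was 0.48 higher. Proser2 rose by 0.44 ± 0.10 (adjusted p = 0.0473), with 9.50 to 9.78 at 5 days and 9.76 to 10.32 at 15 days, so that rat 279 fell within the 5-day range.

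Among the genes with adjusted p-values above 0.05 and under 0.051, the rule that named genes by their change at 200 ppm picked 1 that was higher and 9 that were lower at 15 days. Others of that band, such as Hbb, Irf9 and Lss, are given with their lists. Bex1 was 0.47 ± 0.11 higher at 15 days. Chodl, a membrane lectin, was 0.90 ± 0.20 lower, given as −0.90, with 8.95 to 9.25 at 5 days and 7.60 to 8.48 at 15 days. Pdgfra, the receptor that marks lung fibroblasts, differed by −0.47 ± 0.12, and Fgf7, a growth factor that fibroblasts make for epithelium, by −0.43 ± 0.10. Lepr, the leptin receptor, differed by −0.49 ± 0.13, Armcx4 by −0.80 ± 0.18 and Chn1 by −0.63 ± 0.14. The rule also picked Tmem71 at −0.48 ± 0.11, Rgs7 at −0.46 ± 0.11 and Stard6 at −0.32 ± 0.08. Of 44 fibroblast and matrix genes in the list, the 41 tested had none called and a median of 0.08.

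The enzymes known to activate or open chloroprene's epoxides did not pass the threshold. Cyp2e1 measured 9.63 ± 0.09 (SD, n = 5) at 5 days and 9.51 ± 0.19 (n = 5) at 15 days, a difference of −0.12 ± 0.13 (SE; adjusted p = 0.466). Cyp2f4 spread widely, from 9.94 to 11.12 at 5 days and from 9.65 to 12.17 at 15 days, and differed by −0.13 ± 0.38 (adjusted p = 0.793). Ephx1, the microsomal epoxide hydrolase, differed by 0.21 ± 0.12 (adjusted p = 0.184), with rat 282 highest at 12.01. Among the 21 phase I genes tested the median was 0.04. None was called higher and 1, Fmo2, was called lower, beside 0.0272% of all genes. Before adjustment 5 were higher and 2 lower, beside 29.2% and 12.4% of all genes.

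No glutathione or NRF2 gene that passed the filter on low signals was called. Gclc and Gclm, which together form the first enzyme of glutathione synthesis, differed by −0.10 ± 0.08 and 0.07 ± 0.10 (adjusted p = 0.325 and 0.560). Nqo1, a quinone reductase, measured 12.002, 11.86, 12.04, 11.78 and 11.81 at 5 days and 12.32, 11.97, 12.09, 12.06 and 12.09 at 15 days, a difference of 0.21 ± 0.10 (adjusted p = 0.124) with overlap. Hmox1, which breaks haem down, differed by 0.01 ± 0.14 (adjusted p = 0.946). Of the 20 NRF2 targets tested none was called. Before adjustment 6 were higher and 1 was lower, beside 29.2% and 12.4% of all genes. Their median was 0.17, or 0.0031 with the array score as a covariate. The largest NRF2 difference was that of Gsr, which regenerates reduced glutathione, at 0.56 ± 0.23 (adjusted p = 0.0792). Of the 23 glutathione genes tested none was called, 11 were higher before adjustment, beside 29.2%, and none was lower. Their median was 0.21, or 0.09 without rats 277 and 282 and 0.036 with the array score. The largest glutathione difference was that of Gstm4, a mu class transferase, at 0.38 ± 0.13 (adjusted p = 0.0664).

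Slc7a11, the cystine importer that feeds glutathione synthesis, lay below the filter on low signals. Without the filter it fell by 0.51 ± 0.09 (SE; adjusted p = 0.0232), from 5.90, 6.05, 6.01, 5.90 and 6.15 at 5 days to 5.28, 5.47, 5.49, 5.84 and 5.40 at 15 days. The groups did not overlap, though rat 281 came near the 5-day rats. Over all probe sets without a filter, 3 passed: those of Slc7a11 and Tent5c, and another, 1.26 higher, that is annotated with several symbols, all of beta globins, so that no single gene is named. The change of Slc7a11 was 0.04 at 5 ppm, −0.05 at 30 ppm and −0.14 at 90 ppm.

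Among genes of DNA damage and of airway and alveolar cells, Fmo2 was the only one called. Cdkn1a, the cell-cycle inhibitor induced by p53, differed by 0.18 ± 0.10 (adjusted p = 0.153), and the 16 p53 targets tested had a median of 0.05 with none called. The club cell list, 14 genes, had Fmo2 as its only called member, beside 0.0272% of all genes called lower. Its median was −0.09, with Scgb1a1 at −0.06 ± 0.04 (adjusted p = 0.209). Of the 18 alveolar type 2 genes 9 were higher before adjustment, beside 29.2% of all genes, and none lower, with a median of 0.10. All 15-day rats lay above all 5-day rats for 5 of the 18, beside 5.73%, and below them for 1, beside 1.33%. Of the 16 alveolar type 1 genes 6 were higher and 3 lower before adjustment, beside 29.2% and 12.4% of all genes. For 3 all 15-day rats lay above, beside 5.73%, and the median was 0.05. The largest type 2 difference upward was that of Scd, a fatty acid desaturase, at 0.58 ± 0.16 (adjusted p = 0.0501). The medians were 0.14 for the 19 ciliated cell genes and −0.13 for the 7 neutrophil genes, and none of these 4 lists had a called member. Among the 16 genes induced by glucocorticoids the median was −0.16, and among the 17 clock genes 0.02, again with none called.

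Of the 14 genes tested from the mesothelial list, made for the lung's outer lining, 13 were higher at 15 days, beside 68.0% of all genes. Of the 14, 8 had all 15-day rats above all 5-day rats, beside 5.73% of all genes, and 9 were higher with an unadjusted p under 0.05, beside 29.2%. None passed the adjusted threshold, and the median was 0.47. Msln, the surface protein mesothelin, measured 10.27, 10.03, 10.27, 9.97 and 10.02 at 5 days and 10.71, 10.71, 10.54, 10.69 and 11.48 at 15 days, a difference of 0.71 ± 0.20 (adjusted p = 0.0501). Upk1b, a membrane uroplakin, measured 9.72, 9.62, 9.72, 9.60 and 9.26 at 5 days and 10.27, 10.40, 10.19, 10.43 and 10.68 at 15 days, a difference of 0.81 ± 0.21 (adjusted p = 0.0501).

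Bnc1, a zinc finger protein of mesothelium, went from 5.21 to 5.65 at 5 days to 6.19 to 6.58 at 15 days, a difference of 1.08 ± 0.29 (adjusted p = 0.0501) with all 10 rats under the filter value of 6.65, which the gene passed on other rat arrays. Wt1, a transcription factor of mesothelium, differed by 0.71 ± 0.22 and Aldh1a2, a retinoic acid synthase, by 0.67 ± 0.18 (adjusted p = 0.0575 and 0.0501). Dpp4 went the other way at −0.45 ± 0.22 (adjusted p = 0.118). The mean level of the 14 genes ran from 9.68 to 9.94 in the 5-day rats and from 10.20 to 10.45 in the 15-day rats, without overlap. The list's median was 0.52 without rats 277 and 282 and 0.31 with the array score as a covariate, beside 0.03 and 0.01 for all genes.

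Interferon-stimulated genes differed between animals of the same time. Isg15, a ubiquitin-like protein among the strongest interferon targets, measured 8.60, 8.72, 10.34, 11.50 and 9.15 at 5 days and 10.68, 11.03, 10.78, 10.22 and 10.65 at 15 days. Rat 268 was above every 15-day rat and rats 265, 266 and 269 were below all of them, so the 5-day SD was 1.24 against 0.29 at 15 days. The difference was 1.01 ± 0.36 (SE; adjusted p = 0.0692). Rsad2, the antiviral viperin, measured 8.55, 9.39, 9.16, 10.05 and 8.07 at 5 days and 10.32, 9.85, 10.08, 9.83 and 9.58 at 15 days, a difference of 0.89 ± 0.23 (adjusted p = 0.0501).

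Of the 30 interferon genes tested, none was called, none separated the times in all rats, and 12 were higher before adjustment, beside 29.2% of all genes. Their median was 0.35, and single rats moved it, to 0.23 without rat 265 and 0.56 without rat 268. Irf9 and Stat2, which form the transcription complex of the interferon response, were higher by 0.57 ± 0.15 and 0.45 ± 0.13 (adjusted p = 0.0501 and 0.0509). Ifit2 and Herc6 differed by −0.60 ± 0.42 and −0.48 ± 0.54 (adjusted p = 0.250 and 0.482). The MHC class I genes had 8 of 14 higher before adjustment, beside 29.2%, with none called. Their median was 0.28, or 0.15 without rats 277 and 282 and 0.061 with the array score. Nlrc5, their transcriptional activator, differed by 0.72 ± 0.23 (adjusted p = 0.0584) and Psmb9, an immunoproteasome subunit, by 0.60 ± 0.19 (adjusted p = 0.0597).

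Neither cholesterol synthesis nor splicing had a called gene. Of the 19 cholesterol synthesis genes tested, 14 were higher before adjustment, beside 29.2% of all genes, and the median was 0.27. Lss, which closes the sterol rings, was 0.46 ± 0.12 higher and Fdft1, which makes squalene, 0.47 ± 0.13 higher (adjusted p = 0.0501 and 0.0502). Splicing factors had 22 of 36 lower before adjustment, beside 12.4% of all genes, and a median of −0.41. Clk1, a kinase of splicing factors, differed by −1.10 ± 0.37 and Luc7l3 by −1.08 ± 0.41 (adjusted p = 0.0633 and 0.0708). Their median was −0.12 without rats 277 and 282 and −0.04 with the array score as a covariate, against 0.19 and 0.18 for cholesterol synthesis.

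**Figure D3:**
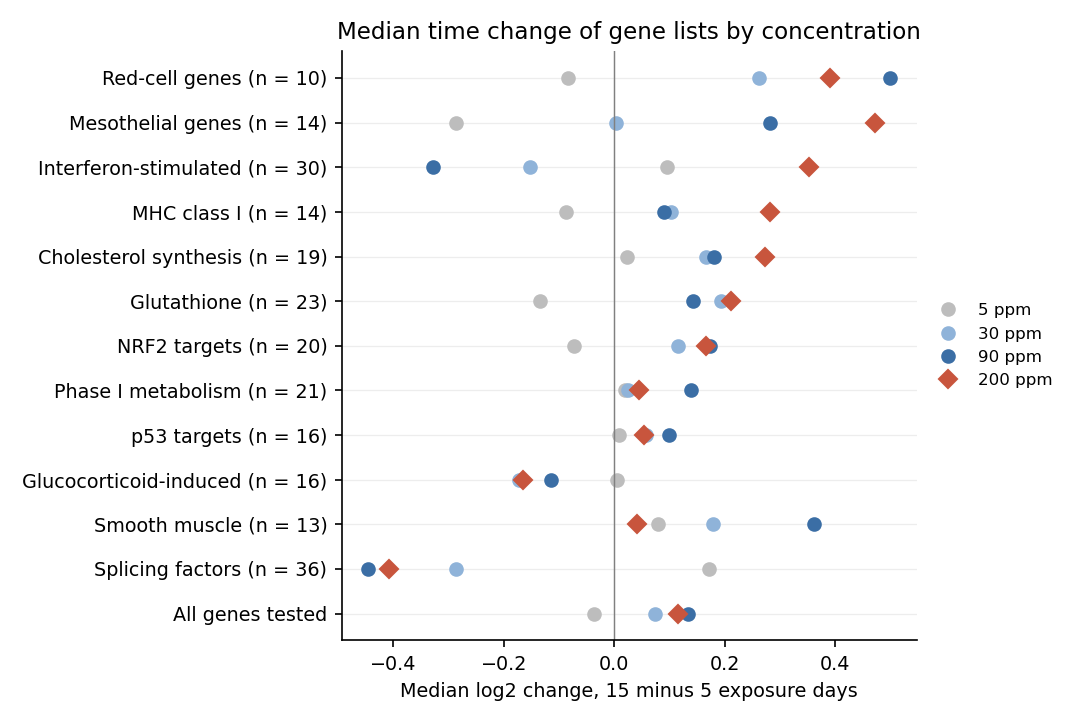
Median log2 change from 5 to 15 exposure days (horizontal axis) of 12 gene lists and of all genes tested (vertical axis, with the number of genes tested), at 5, 30, 90 and 200 ppm. Red diamonds mark 200 ppm, where mesothelial genes reach 0.47, interferon-stimulated genes 0.35 and splicing factors −0.41.

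The same comparison at the lower concentrations gave 0 called genes at 5 ppm, 0.00% of those tested, where 893 (8.11%) had an unadjusted p under 0.05 in limma. At 30 ppm 784 genes were called (7.12%) and at 90 ppm 1209 (11.0%). The 4 time comparisons share no array. Across genes, the change at 200 ppm correlated at r = 0.91 with that at 90 ppm, 0.82 at 30 ppm and −0.72 at 5 ppm, and the loading on the axis within groups correlated at −0.94, −0.84 and 0.72 with those changes. These are descriptions over genes, which are not independent. The optical density at 90 ppm ran from 3.377 to 4.877 at 5 days and from 1.365 to 2.511 at 15 days. At 30 ppm it ran from 2.514 to 4.833 and from 1.506 to 2.866, and at 5 ppm from 1.014 to 4.244 and from 1.913 to 2.535. Its part in these counts and correlations was not tested.

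**Figure D4:**
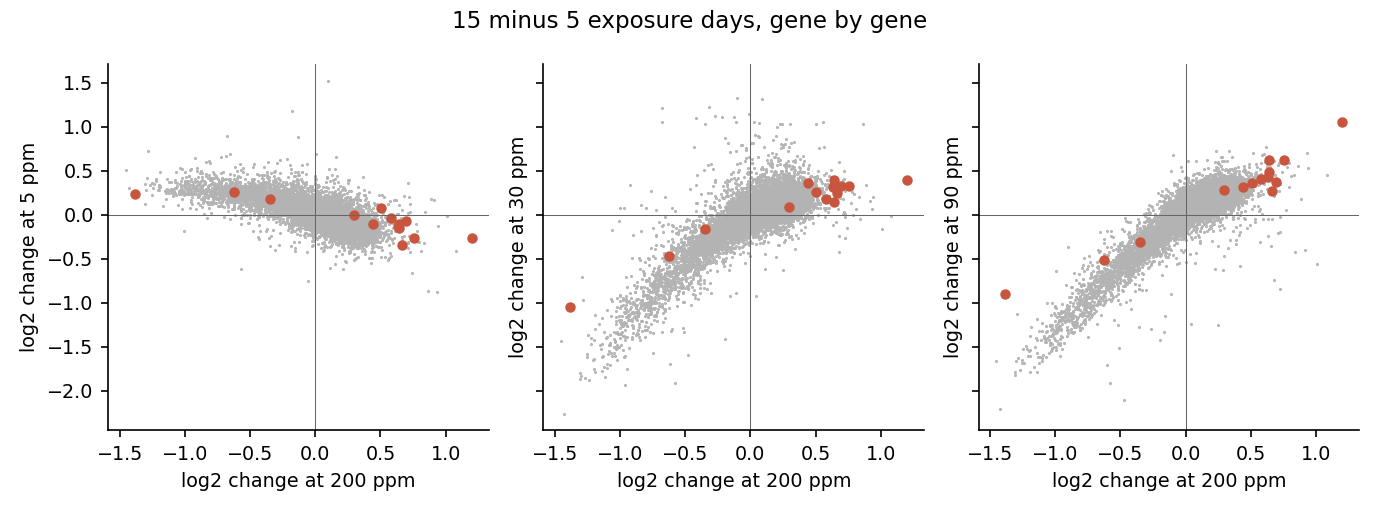
Log2 change from 5 to 15 exposure days of each gene at 200 ppm (horizontal axes) against the change at 5, 30 and 90 ppm (vertical axes, left to right). Grey points are the 11010 genes and red points the 14 genes called at 200 ppm; the cloud slopes down at 5 ppm (r = −0.72) and up at 30 and 90 ppm (r = 0.82 and 0.91).

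Of the 14 genes called at 200 ppm, all but Mrps18c and Fam3b also passed at 90 ppm, in the same direction, beside 11.0% of all genes. Alas2 rose there by 1.05 ± 0.24 (SE), Alox15 by 0.62 ± 0.15, Bpgm by 0.62 and Icam1 by 0.28 (adjusted p = 0.0364 for each). Fmo2 fell by 0.90 at 90 ppm and changed by −1.06 at 30 ppm (adjusted p = 0.0453 and 0.0265). Abca8a fell by 0.52 at 90 ppm and changed by −0.47 at 30 ppm (adjusted p = 0.0364 and 0.0291). Mrps18c differed by 0.26 and Fam3b by 0.37 at 90 ppm, both short of the threshold (adjusted p = 0.131 and 0.0766). At 5 ppm no gene passed, and Alas2 differed by −0.27, Alox15 by −0.27 and Fmo2 by 0.24. For these genes the 200 ppm mean lay nearer to the 5 ppm means at 15 days than at 5 days. Alas2 averaged 10.65 and 10.39 at 5 ppm (5 and 15 days), against 9.44 and 10.64 at 200 ppm. Alox15 averaged 9.93 and 9.67 against 9.01 and 9.76, and Fmo2 10.66 and 10.90 against 12.08 and 10.70. This did not hold for every called gene, with Etfbkmt at 8.92 and 9.09 against 9.08 and 8.73.

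The change at 200 ppm minus the mean change at the 3 lower concentrations passed for no gene (0.00%). The smallest adjusted p was 0.575, with 928 genes under an unadjusted p of 0.05 (8.43%). The smallest p-values in the upward direction belonged to Mrps18c at 0.61, Pkp2, a plaque protein of desmosomes, at 0.43 and Gpt, an alanine aminotransferase, at 0.36. Lrrn4, a mesothelial membrane protein, at 0.79, Dhx58, an RNA sensor induced by interferon, at 0.56 and Eps8l1 at 0.28 followed. In the downward direction they were Mex3a at −0.25, Sspn at −0.33, C13h1orf21 at −0.35, Rgs7 at −0.43, Chodl at −0.77 and Myh11, the myosin heavy chain of smooth muscle, at −0.59.

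Lrrn4 measured 9.08, 8.97, 9.08, 9.18 and 8.72 at 5 days and 9.58, 9.81, 9.84, 9.94 and 9.81 at 15 days. The groups at 200 ppm were apart by 0.79 ± 0.19 (SE), while the time change was 0.31 at 90 ppm, −0.0035 at 30 ppm and −0.31 at 5 ppm. Myh11 measured 10.26, 9.93, 9.90, 10.13 and 10.25 at 5 days and 9.23, 9.70, 9.61, 9.65 and 9.28 at 15 days, a difference of −0.60 ± 0.15, while at 5 ppm it was 0.42.

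For the interferon genes the concentrations differed in sign. Their median change was 0.35 at 200 ppm, −0.33 at 90 ppm, −0.15 at 30 ppm and 0.10 at 5 ppm. For 17 of the 30 the change at 200 ppm was larger than the mean of the lower concentrations at an unadjusted p under 0.05 in limma. The share of all genes was 6.46%. Isg15 changed by 1.01 at 200 ppm and by −0.56 at 90 ppm, and Mx1, a GTPase that blocks viruses, by 0.72 and −0.84. For both genes the 5-day means lay further apart than the 15-day means. Isg15 averaged 9.66 and 10.67 at 200 ppm (5 and 15 days), against 11.33 and 10.77 at 90 ppm. Mx1 averaged 8.04 and 8.76 against 9.56 and 8.72. The mesothelial median was 0.47, 0.28, 0.00 and −0.29 at 200, 90, 30 and 5 ppm. At the same unadjusted p, 8 of 14 were larger at 200 ppm. The red-cell median was 0.39, 0.50, 0.26 and −0.08, with 4 of 10 larger at that p. Of the mesothelial genes, Msln averaged 11.20 and 10.82 at 5 ppm (5 and 15 days), against 10.11 and 10.83 at 200 ppm. Upk1b averaged 10.80 and 10.38 against 9.58 and 10.40, and Dpp4 10.37 and 10.57 against 10.65 and 10.20.

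**Figure D5:**
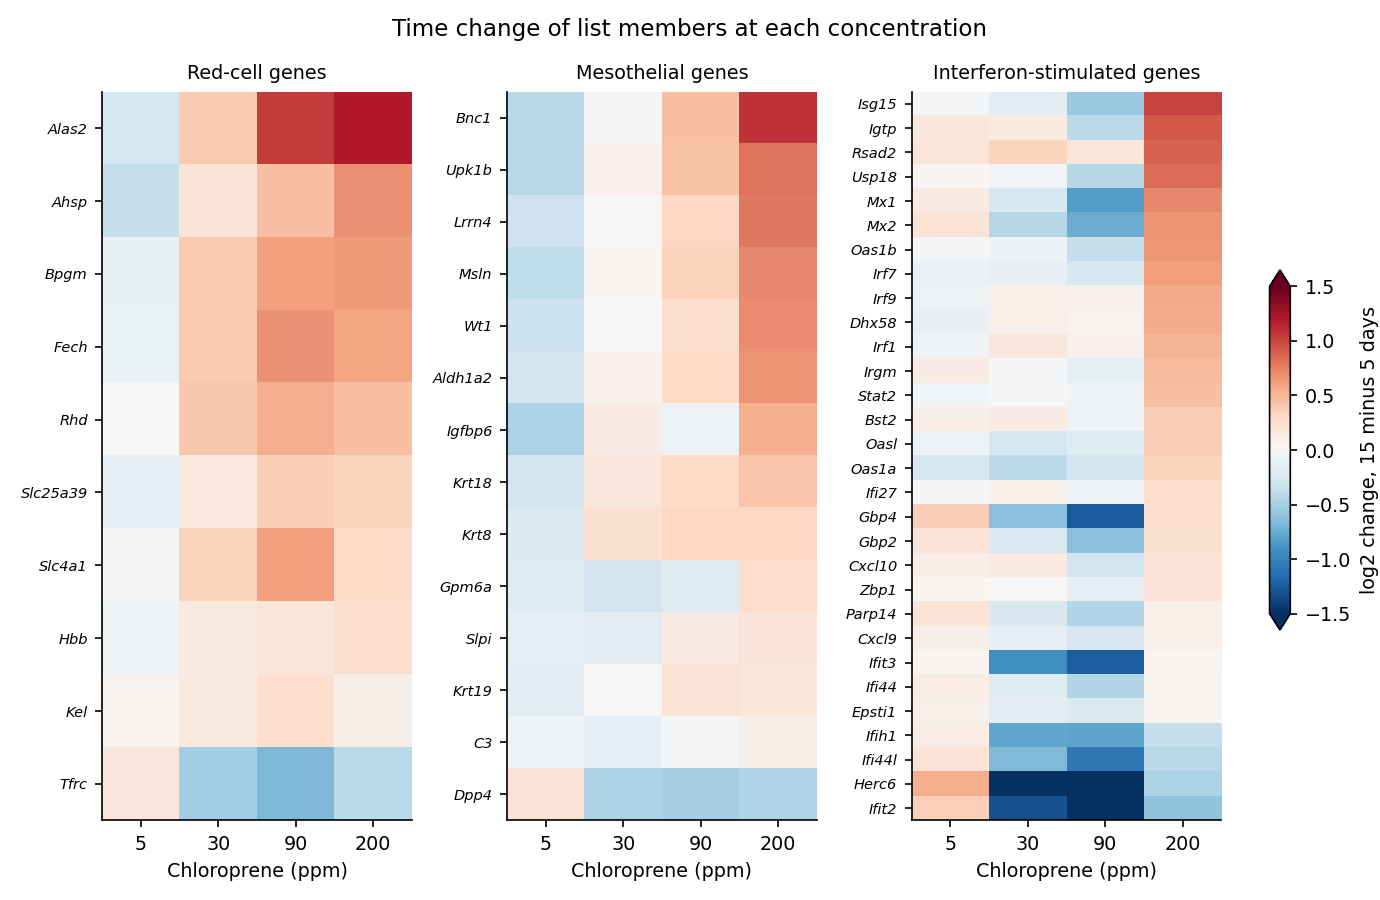
Log2 change from 5 to 15 exposure days (colour, red higher and blue lower at 15 days, saturating at 1.5) of each red-cell, mesothelial and interferon-stimulated gene tested, by concentration (columns, ppm). Rows are ordered by the change at 200 ppm; mesothelial genes shift from blue at 5 ppm to red at 200 ppm, while interferon genes such as Isg15 are red at 200 ppm and blue at 90 ppm.

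Against 5 ppm alone, the time change at 200 ppm differed for 1259 genes, 11.4% of those tested, with 970 more positive (8.81%) and 289 more negative (2.62%) at 200 ppm. All 14 genes called at 200 ppm were among them, from Fmo2 at −1.62 ± 0.41 (SE) to Alas2 at 1.47 ± 0.34. The 14 were chosen by their change at 200 ppm, which is part of this difference. Among the 1259 were also 9 of 14 mesothelial genes, 5 of 10 red-cell genes and 2 of 30 interferon genes. All of these list genes were more positive at 200 ppm, beside 8.81% of all genes. Leaving out rat 269 or 277 left none of the 1259, leaving out rat 282 left 1 and rat 266 left 29, and leaving out rat 279 gave 4172. The 5 ppm, 5-day rats had a mean array score of −0.08 against 0.17 in the 200 ppm, 5-day rats.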

How the data were processed

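Total RNA of right lung lobes was measured on 1 Affymetrix Rat230_2 array per animal. Per the file, the deposited data are log2 signals of probe sets; how the authors summarized and normalized them is not given in the sources used here. They ran from 3.07 to 15.1, with array medians of 7.25 to 7.32, and the number of arrays limits the precision.

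Groups follow the sample titles; 3 rats (282 and 269 at 200 ppm, 239 at 30 ppm) have a title without the tissue. Of 31099 probe sets, 20826 had 1 gene symbol in the array annotation, 436 several and 9780 none, and 57 were controls; the names can be old. Named probe sets above the 40th percentile of all values (6.65) on at least 5 arrays were kept (15109), and the brightest kept probe set on average stood for each gene (11010 genes). All 40 rat arrays were fitted with limma 3.58.1 in R 4.3.3 by a group-means model with moderated variances; two-sided p-values received the Benjamini-Hochberg correction across the 11010 genes, with a threshold of 0.05. The scripts were tested on simulated data. Single values per rat were compared by exact permutation tests.

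The array score is the projection of an array on the first principal component of the residuals within groups, as log2 per gene. The 51 gene lists (1232 genes) come from textbook knowledge and were described by counts and medians, with no test of a list. The members and lists were chosen with earlier results of these data known. Named genes are up to 12 rises and 12 falls of largest size past the threshold, filled up with the smallest p where fewer passed, the 6 smallest p in each direction for the difference from the lower concentrations, and 10 genes of chloroprene metabolism, stress and airway, of which Mki67 did not pass the filter. Genes described by list, and Slc7a11, were named after their values were seen. Alternatives changed the filter, the normalization, the choice of probe set, covariates, moderation, array weights and the rats used.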

Additional observations from a re-analysis of the deposited data

Results flagged for a closer look

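In 6 of 92 groups of rats at 200 ppm checked (4 technical values and 42 named genes at both times), 1 rat lay far from the other 4, by the gap to the nearest rat as a share of the group's range. Chance alone marks about 1 group in 20. The share was 0.833 for Fam3b in rat 277 (high), 0.737 for Fmo2 in rat 277 (low) and 0.726 for Armcx4 in rat 277 (low), all at 15 days. It was 0.861 for Gclc in rat 282 (low) and 0.803 for Dhx58 in rat 281 (low) at 15 days, and 0.780 for Chodl in rat 269 (high) at 5 days.

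For 31 of the 42 named genes the time change at 200 ppm differed from that at 5 ppm past the threshold (limma, change at 200 ppm minus change at 5 ppm, log2), as did 11.4% of all genes. Most of the named genes were chosen by their change at 200 ppm, which is part of this difference. None of all genes passed with the 3' to 5' difference or the array score as a covariate, or without rats 277 and 282. None passed with the RNA integrity number either, a fit that lacked rats 233 and 269, and none passed without rat 269 alone. Among the called rises the difference was 1.47 for Alas2, 1.02 for Alox15, 1.01 for Mrps18c, 0.79 for Hba-a3, 0.77 for Fam3b, 0.76 for Mcub and 0.75 for Bpgm. It was 0.62 for Wwc1, 0.54 for Proser2, 0.43 for Tent5c and 0.31 for Icam1. Among the called falls it was −1.62 for Fmo2, −0.88 for Abca8a and −0.53 for Etfbkmt. For genes short of the threshold at 200 ppm it was 1.10 for Lrrn4, 0.70 for Pkp2, 0.69 for Bex1, 0.67 for Dhx58 and 0.40 for Gpt. In the other direction it was −1.11 for Chodl, −1.02 for Myh11, −1.01 for Armcx4, −0.79 for Chn1, −0.65 for Tmem71, −0.63 for Lepr and −0.62 for both Rgs7 and Pdgfra. The smallest were −0.52 for Fgf7, −0.48 for Sspn, −0.41 for Stard6 and −0.39 for C13h1orf21.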

How the results depend on the processing

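No paired analysis was possible because every rat has an animal number of its own. Of the 14 genes called at 200 ppm, 14 kept the call under quantile normalization (225 called in all), trend with robust moderation (231) and array weights (2678), and 13 of the 13 tested with a 60th percentile filter (358). Fewer were called without a filter (2), with the mean of probe sets (1) or with the 200 ppm arrays alone (9), and 1 of the 14 kept its call in each of these. All probe sets gave 3, and 9 of the 14 reached 1.5-fold. The count was 0 with the RNA integrity number, the 3' to 5' difference, the optical density or the array score as covariate, with only the rats whose title names the tissue (titled rats), or without both rats 277 and 282. The fits with the RNA integrity number lacked rats 233 and 269, which have none. The optical density, the array score and the omission of both rats were chosen after seeing the data. Leaving out 1 rat gave 0 to 3740. The cause was not tested. For the difference from the 3 lower concentrations every setting tried gave 0, except the array score with 1. The optical density was not tried as a covariate for this difference or for that from 5 ppm. For the difference from 5 ppm, 1259 became 4720 with array weights and 0 with the RNA integrity number, the 3' to 5' difference, the array score, titled rats only, or without rats 277 and 282; leaving out 1 rat gave 0 to 4172. The 4 called list genes became 1 without a filter, 31 with quantile normalization and 0 with the RNA integrity number, and 0 to 240 without 1 rat.

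Signs turned for genes that were not called: Hmox1 was −0.014 with quantile normalization, −0.0035 with the 3' to 5' difference, −0.071 with array weights, −0.068 with titled rats only, −0.18 with the array score, −0.24 with the optical density, −0.032 without rats 277 and 282, and −0.089 to 0.11 without 1 rat. Cyp2f4 was −0.53 to 0.10 without 1 rat, the last without rat 280, Ephx1 −0.038 without rats 277 and 282, Gclc 0.014 with titled rats only and Gclm −0.037 with the array score. With the optical density, Cyp2f4 was 0.32, Gclm −0.13 and Nqo1 −0.033. The other probe set gave 0.14 for Etfbkmt, which was called, and 0.11 for Mex3a. Of the list medians recomputed, 6 moved and 129 did not move by more than the SD between rats.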

Other observations

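Without rats 277 and 282, which stood apart from the other rats at 200 ppm, no gene passed the threshold (677 had an unadjusted p under 0.05 in limma, and the smallest adjusted p was 0.726). The genes with the smallest unadjusted p then included red-cell genes: Ahsp was 0.84 higher at 15 days, Hba-a3 0.60, Alas2 0.98 and Hbb 0.27. Lrrn4, a mesothelial protein, was 0.86 higher, Tent5c 0.43 and Steap4, a metalloreductase of iron and copper, 0.96. Wwtr1, the Hippo pathway coactivator TAZ, was 0.31 higher beside 0.22 with all rats, Efemp1 and Col12a1, proteins of the extracellular matrix, 0.32 and 0.31, and Scd2, a fatty acid desaturase, 0.28. Etv4, a transcription factor downstream of growth factor signalling, was −0.57 beside −0.43 with all rats. These genes were picked by their values and are given as a description.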
